A study of Xenopus laevis with 17 samples.

Results

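The regions described here are 5832 promoter sites at which Foxn4 was called bound in frog ectoderm when Foxn4 was expressed alone, and at which no Foxn4 peak was called when Multicilin was expressed with it. They were chosen from the authors' peak lists by a simple rule: the peak overlaps no peak of the Foxn4 with Multicilin list by even 1 bp, and its centre lies within 1000 bp of the start of a gene model. They make up 8.94% of the 65258 Foxn4-alone peaks and 46.2% of the 12614 Foxn4-alone peaks at promoters. These are called alone-only peaks or sites. The other 6782 promoter peaks overlapped a peak of the 29673-peak list made with Multicilin and are called kept peaks below. The alone-only sites lie at 5990 of 24383 gene models (24.6%), which carry 4921 distinct symbols. Peak presence chose these sites, so every difference in presence or tag signal is given as a description without a test.

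Foxn4 is a forkhead transcription factor of the multiciliated cell programme, and Multicilin (MCIDAS) is the coregulator that starts this programme by acting with E2F4 or E2F5 and DP1. Multiciliated cells carry many motile cilia, and in frog embryos they form in the epidermis beside ionocytes and mucus-secreting cells, with Notch signalling limiting their number. Foxj1 is the forkhead factor of motile cilium genes. A forkhead factor read by chromatin immunoprecipitation with sequencing (ChIP-seq) gives a peak wherever its DNA fragments pile up over an input library.

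The samples used here were *Xenopus laevis* animal caps, the ectoderm cut from embryos at stage 10. Constructs made hormone-inducible by a glucocorticoid receptor fusion were activated by 20 uM dexamethasone at mid-stage 11, and caps were harvested 9 h later, at about stage 18. ChIP-seq consisted of 1 library of caps with Foxn4-GFP-HGR, a tagged hormone-inducible Foxn4, together with Multicilin mRNA, and 1 library with Foxn4-GFP-HGR alone. RNA was read in caps that all carried Multicilin: 2 libraries with Cas9 protein and foxn4 guide RNA (Foxn4 CRISPR), 2 with a foxn4 morpholino (Foxn4 MO), 2 with Cas9 protein and foxj1 guide RNA (Foxj1 CRISPR) and 3 with Multicilin only (Multicilin control). The Multicilin control was re-used from an earlier study, so in the 3 comparisons with it, which share its libraries, the effect of a perturbation and of the study cannot be told apart. No RNA library lacked Multicilin, so the RNA does not bear on the condition in which these sites were bound. The bound protein was expressed from injected mRNA, and cap pieces hold several cell types, so fewer cells of a type and less RNA per cell cannot be told apart. The labels do not say whether replicates were separate clutches, and the p-values therefore rest on how far these libraries differ, which may be technical.

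The RNA libraries held 8265823 to 22041340 estimated counts, and replicates differed by far more than sampling noise (chi-square per degree of freedom 13 to 131.7). The targeted FOXN4 models passed the adjusted p threshold in no comparison, as given below, and neither a CRISPR edit nor a morpholino need lower the RNA. Markers of multiciliated cells, summed over their list, stood at 6140 CPM (counts scaled to library size) in both Foxn4 CRISPR libraries, 4310 to 5320 in Foxn4 MO, 3340 to 3860 in Foxj1 CRISPR and 6320 to 9960 in Multicilin control. Secretory cell markers stood at 2850 to 2870, 1480 to 2060, 2680 to 2930 and 5370 to 15100 CPM in the same order of groups. They were ITLN1, OTOG and FOXA1, as no model bears the name MUC5B. Neural markers were higher in every perturbed library than in any control, with 161 to 197, 148 to 268, 214 to 228 and 28.2 to 57.2 CPM in that order. This sum holds only NCAM1 and OTX2, as no model bears the name SOX2. Mesoderm markers stood at 16.1 to 22, 2.16 to 4.04, 31 to 35 and 3.1 to 9.52 CPM, and endoderm markers were at or under 6.7 CPM in all 9 libraries and lowest in control (0.444 to 1.43). Neural and endoderm markers were thus higher, and secretory and multiciliated markers lower, in all perturbed libraries than in any control. The gap of the multiciliated markers was small in Foxn4 CRISPR (6140 against at least 6320 CPM). The part of these markers in the results was not tested.

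The alone-only promoter peaks were mostly weak peaks. Their tag signal, the tags in the peak scaled by the authors to 10000000 tags, had a median of 25.7 (quartiles 18.9 and 35.2, range 9.5 to 310), against 54.1 (36.5 and 85.3, up to 1311.6) at kept promoter peaks. The median alone-only peak rested on 19 tags and stood 12.8-fold over input, against 40 tags and 27.7-fold at kept peaks. Low signal was not particular to promoters. Foxn4-alone peaks away from promoters that overlapped no peak of the other list had a median signal of 21.7, 16 tags and 15.4-fold over input. Promoter peaks were split by tag signal into 10 equal bins. From the weakest bin to the strongest, the alone-only share was 89.2, 80.9, 74.8, 64.9, 51.7, 40.1, 30.0, 18.3, 9.75 and 2.62%. Of the 1344 promoter peaks with a signal of at least 100, 34 were alone-only (2.53%), while 895 of the 1000 weakest were.

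**Figure D1:**
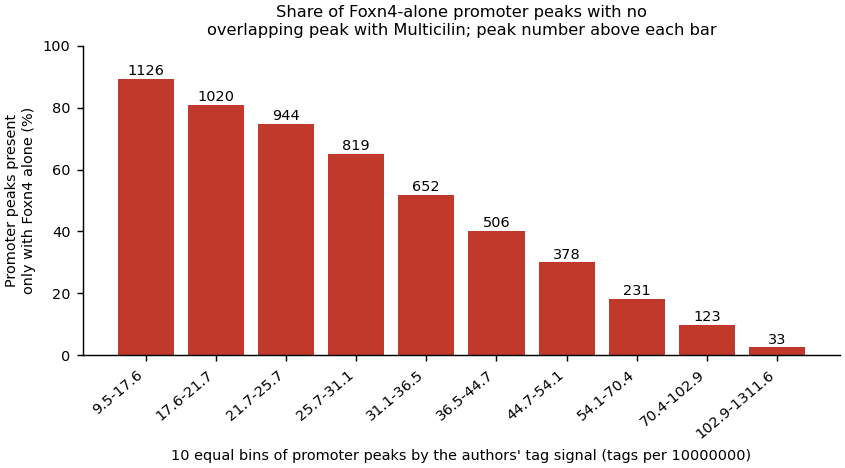
Share of Foxn4-alone promoter peaks with no overlapping peak in the Foxn4 with Multicilin list (percent, vertical axis) in 10 equal bins of tag signal from weakest to strongest (horizontal axis). The share is 89.2% in the weakest bin and 2.62% in the strongest, and is lower in each stronger bin.

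The 2 ChIP libraries also differed as a whole. Per the file headers, the Foxn4 with Multicilin library had 4911853 tags, of which 582408 lay in its own called peaks (11.86%). The Foxn4-alone library had 7387992 tags, of which 2475863 lay in its own called peaks (33.51%). The headers call this share the approximate IP efficiency, and it depends on how many peaks were called. Of all Foxn4-alone peaks 39.6% were kept, with 53.8% kept at promoters and 36.2% elsewhere. With 1 library a condition, binding that was lost and binding that fell below the peak caller's threshold cannot be told apart. When the Foxn4-alone list was cut to as many of its strongest peaks as the other list holds, 1599 alone-only promoter peaks were left.

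Alone-only and kept promoter peaks sat at nearly the same place. The median distance from the start was 100 bp for alone-only peaks and 90 bp for kept peaks. Within 100 bp of a start lay 2917 of the 5832 alone-only peaks, against 3665 of the 6782 kept peaks. Within 250 and 500 bp lay 77.5 and 88.6% of alone-only peaks, against 81.5 and 91.9% of kept peaks. Peak centres were upstream of the start at 41.9% of alone-only and 45.9% of kept peaks, and 4.17% and 6.44% had at least 2 starts within 1000 bp. At the limit of the rule, the sites of SCAMP2 (999 bp, signal 23) and OTUD6B (1000 bp, signal 13.5) were just inside, and those of RAVER1 and NOP56 (both 1003 bp, signals 17.6 and 23) just outside.

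**Figure D2:**
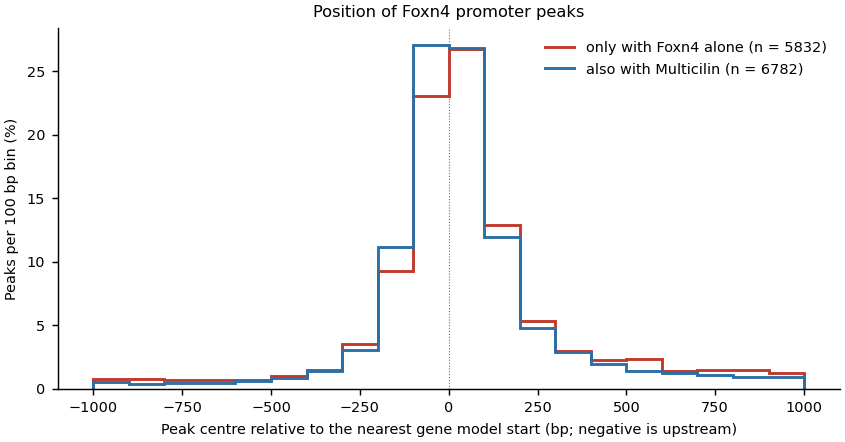
Distance of peak centres from the nearest gene model start (bp, horizontal axis, upstream to the left) for promoter peaks found with Foxn4 alone only and kept with Multicilin (percent of each set, vertical axis). Both sets crowd around the start, with medians of 100 bp and 90 bp.

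Some alone-only sites had a neighbour in the other list. A Foxn4 with Multicilin peak was centred within 500 bp of 176 alone-only peaks (3.02%), within 1000 bp of 370 (6.34%) and within 5000 bp of 1038 (17.8%). Among the 34 alone-only peaks with a signal of at least 100, these numbers were 13, 18 and 31 (38.2, 52.9 and 91.2%). The median gap over all alone-only peaks was 23569.5 bp.

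The strongest alone-only site was at PAOX, a polyamine oxidase (signal 310, 229 tags, genome v7.1 scaffold 27067, bases 1225263 to 1225603, centre 794 bp past the start). Its nearest peak in the other list was 311 bp away centre to centre, and the PAOX model also has a kept peak. EEF1A1, the translation elongation factor that brings aminoacyl-tRNA to the ribosome, had a signal of 251.8 at scaffold 300439, bases 609694 to 610034, with a neighbour at 320 bp. Peaks are 340 bp wide in the Foxn4-alone list and 276 bp wide in the other. At gaps of 311 and 320 bp the peaks nearly touch, so PAOX and EEF1A1 are alone-only by a narrow margin of the overlap rule. ADCY6, an adenylyl cyclase, had 240.9 at scaffold 8129, bases 5875997 to 5876337, with a neighbour at 468 bp. SMAD7, an inhibitor of TGF-beta and BMP signalling, had 228.7 at scaffold 143831, bases 942766 to 943106, with the nearest peak 2802 bp away. Next came sites at RBM47, an RNA-binding protein (193.6), RFX1, a regulatory factor X protein (185.4), both copies of the immediate early gene IER5 (174.6 and 161.1) and HMHA1 (169.2). The tenth place was shared at 138.1 by CAPN2, a calpain protease, CLSPN, a checkpoint protein of DNA replication, and PPIF, a mitochondrial cyclophilin. HMHA1 and CAPN2 had no other-list peak within 5000 bp, their gaps being 40405 and 33693 bp, while CLSPN and PPIF had one at 478 and 334 bp.

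The RNA of these strongest genes did not behave alike. EEF1A1 had 15900 and 14000 CPM in Foxn4 CRISPR, 3430 and 6570 in Foxn4 MO, 15900 and 15000 in Foxj1 CRISPR, and 14200, 16500 and 14100 CPM in Multicilin control. Only the Foxn4 MO libraries lay apart, below all others (log2 fold change against control -1.58 ± 0.29 SE, edgeR adjusted p = 0.00192). ADCY6 had 45.4 and 44.5 CPM in Foxn4 CRISPR, 21.6 and 22.1 in Foxn4 MO, 9.91 and 14.1 in Foxj1 CRISPR, and 108, 84.4 and 58.2 CPM in Multicilin control. All 6 perturbed libraries were below all controls, and ADCY6 fell in Foxn4 MO (-1.93 ± 0.31, adjusted p = 0.00103) and Foxj1 CRISPR (-2.80 ± 0.32, adjusted p = 0.000282), while Foxn4 CRISPR missed the threshold (adjusted p = 0.0502). HMHA1 and CAPN2 fell in Foxn4 MO against control as well (-3.78 ± 0.53, adjusted p = 0.000573, and -3.24 ± 0.63, adjusted p = 0.00274). SMAD7, RFX1 and both IER5 copies passed the test in none of the 3 comparisons with control, with adjusted p of 0.308 or more.

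The genes of Foxn4 and Multicilin themselves were among the alone-only sites. FOXN4 on scaffold 44061 had an alone-only peak of signal 16.2 at 732 bp past the start, besides a kept peak, and FOXN4 on scaffold 143664 had an alone-only peak of 18.9 at 661 bp. MCIDAS on scaffold 52441 had a strong alone-only peak of 119.1 at -709 bp, where a minus sign means upstream of the start, and the other MCIDAS model had no promoter peak. The 3 FOXJ1 models had kept peaks only. FOXN4 on scaffold 44061 had 354 and 380 CPM in Foxn4 CRISPR, 445 and 506 in Foxn4 MO, 549 and 585 in Foxj1 CRISPR, and 388, 79 and 511 CPM in Multicilin control. Foxn4 CRISPR lay below Foxn4 MO and Foxj1 CRISPR and within the range of the controls. Control replicate 2 lay far below all other libraries, and neither FOXN4 model passed the test in any comparison (lowest adjusted p 0.0641). That lowest value was of FOXN4 on scaffold 143664 in Foxn4 MO against control (log2 fold change 1.30), which passed with DESeq2 (adjusted p = 0.0413), without the filter on low counts (0.0488), with uniquely matching reads (0.0333), with the replicate number as a block (0.0355), and without control replicate 2 (0.00941) or 3 (0.0337). The MCIDAS RNA can include injected mRNA and was 450, 169 and 547 CPM in Multicilin control on scaffold 52441. RFX7, a regulatory factor X gene, and FOXA1 were the remaining genes of the multiciliated cell regulator list with alone-only peaks (signals 10.8 and 63.6). FOXA1 is a forkhead factor of mucus-secreting cells that this list also counts.

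Which kinds of genes held alone-only sites differed strongly between gene lists. Cytosolic ribosomal proteins led, with an alone-only peak at 74 of 147 models (50.3%, kept peaks at 34%). Respiratory chain subunits followed with 67 of 159 (42.1%), proteasome subunits with 30 of 77 (39.0%), ubiquitin enzymes with 55 of 148 (37.2%), mitochondrial ribosomal proteins with 32 of 87 (36.8%) and p53 and stress genes with 36 of 98 (36.7%). Cell cycle genes had 43 of 138 (31.2%) and Notch pathway genes 28 of 96 (29.2%), against 24.6% of all models. Ciliary genes were at the other end: alone-only peaks stood at 2 of 78 motile cilium models (2.56%), with kept peaks at 84.6%, and at 6 of 59 ciliary transport models (10.2%). Multiciliated cell regulators, with FOXA1 counted among them (11.6%), epidermal genes (12.8%), neural and mesoderm genes (16.5%), ionocyte and secretory genes (16.7%), kinesins (17.0%), CCDC genes (17.4%) and centriole assembly genes (18.2%) followed. These shares are of all models of a list, with a promoter peak or not. No promoter peak stood at 48.9% of epidermal, 63.0% of neural and mesoderm and 63.9% of ionocyte and secretory models. It was lacking at 12.8% of motile cilium models and 45.7% of all models.

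**Figure D3:**
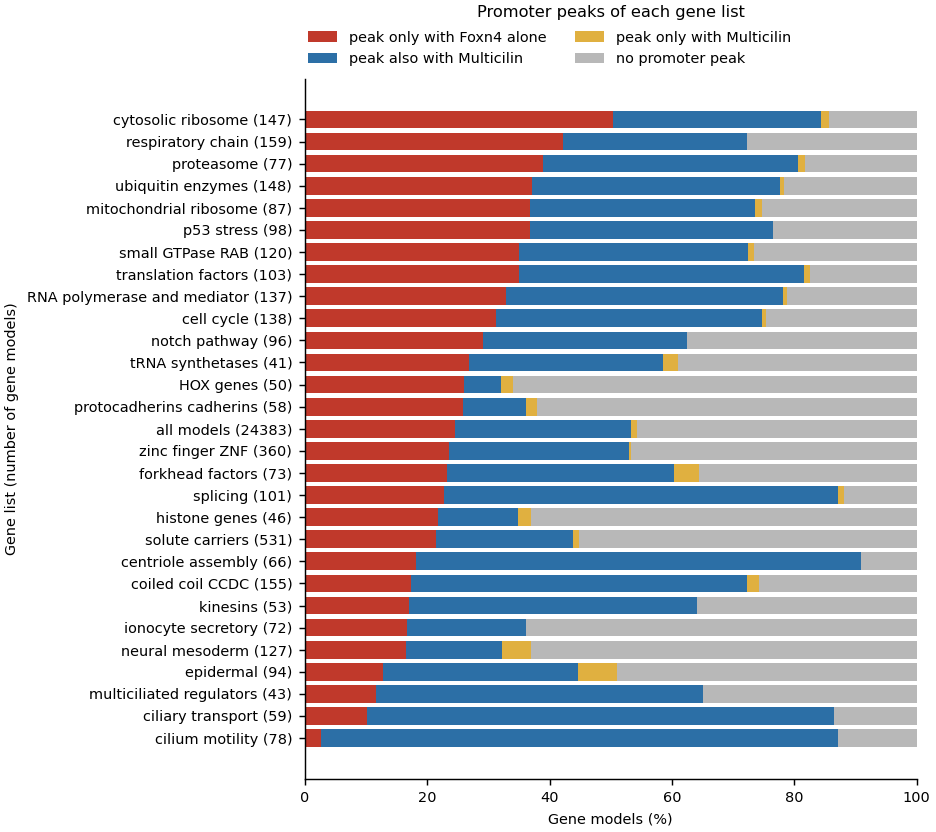
Share of gene models in each list by promoter peak (percent of models). The classes are a peak found with Foxn4 alone only, kept peaks only, a peak of the Foxn4 with Multicilin list only, and no promoter peak. Cytosolic ribosomal proteins have the largest alone-only share drawn (50.3%) and motile cilium genes the smallest (2.56%). Models with both kinds of peak count under the first.

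The lists also differed in peak strength and RNA level, and the part of these in the order was not tested. The strongest promoter peak of each model had a median signal of 100.8 among motile cilium genes, 33.8 among cytosolic ribosomal proteins and 37.9 over all models with a promoter peak. Among models whose strongest peak lay in the middle bins of signal (25.7 to 54.1), the alone-only share was 40 of 56 for ribosomal proteins (71.4%), 1 of 8 for motile cilium genes and 2647 of 5587 over all models (47.4%). Ribosomal protein genes are also highly expressed: in the top of 10 equal bins of RNA level, 70 of 136 ribosomal models had an alone-only peak (51.5%), against 479 of 2438 of all models (19.7%).

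*X. laevis* is an allotetraploid, and many genes have 2 copies. Of 6600 symbols with exactly 2 models, both copies had an alone-only peak at 743 and 1 copy at 2190. Where both had one, the stronger peak exceeded the weaker by a median of 1.43-fold, and 597 pairs (80.4%) were within 2-fold. IER5 (161.1 and 174.6) and CTNNB1, which encodes beta-catenin (55.5 and 59.6), are close pairs, while AGR2 (52.8 and 135.4) differed more. All alone-only peaks have a narrow range of signal (quartiles 18.9 and 35.2), and pairs of unrelated sites were not compared. These ratios therefore do not show that copies are more alike than other alone-only sites. Where 1 copy had one, the other had a kept peak at 1111 symbols, no promoter peak at 1032 and a peak of the other list only at 47.

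Genes with alone-only sites were expressed at intermediate levels in the Multicilin caps. Their median level was 2.20 to 3.83 RPKM (counts scaled to model length and library size) across the 9 libraries, against 6.14 to 8.73 RPKM for genes with kept peaks only and 0.220 to 0.518 RPKM for genes without a promoter peak. Ordering all models by their mean RPKM in Multicilin control, the share with an alone-only peak was 33.7% in bin 6 of 10 and 19.7% in the top bin, where kept peaks made up 56.7%.

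**Figure D4:**
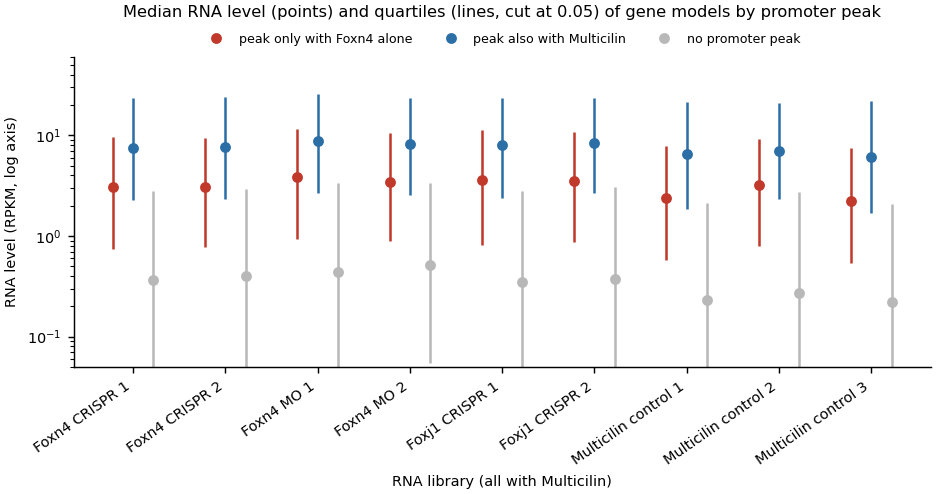
Median RNA level (points, RPKM, log axis) with quartiles (lines) in each of the 9 RNA libraries for gene models with an alone-only promoter peak, with kept peaks only and without a promoter peak. Alone-only-site genes lie between 2.20 and 3.83 in every library, below kept-only genes and above genes without a peak.

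As a set, genes with alone-only sites responded to the perturbations about as often as genes in general. Of 5990 models 5387 passed the filter on low counts. In Foxn4 CRISPR against Multicilin control 559 were higher (10.4%) and 533 lower (9.89%), where the background over all 19058 models tested was 12.6% higher and 10.7% lower (23.2% either way). In Foxn4 MO against control 1271 were higher (23.6%) and 1024 lower (19.0%), against a background of 23.9% and 21.1% (45.0% either way). In Foxj1 CRISPR against control 1047 were higher (19.4%) and 913 lower (16.9%), against 19.8% and 20.7% (40.5% either way). With DESeq2 the balance in Foxn4 CRISPR was 592 higher and 726 lower, with RLE scaling 515 and 583, and with the replicate number as a block 370 and 431. In Foxj1 CRISPR it was 1035 and 1045 with DESeq2 and 763 and 776 with the block, so in neither comparison does one direction lead under every setting. Single libraries moved the totals: 1092 calls in Foxn4 CRISPR became 233 without its replicate 1 and 343 without its replicate 2, 2295 in Foxn4 MO became 1355 without its replicate 1, and 1960 in Foxj1 CRISPR became 768 without its replicate 1 and 1201 without its replicate 2.

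The 2 comparisons with Foxj1 CRISPR stay within the newer libraries. Foxn4 CRISPR against Foxj1 CRISPR gave 32 alone-only-site models higher (0.594%) and 1 lower, where the background was 1.43% and 0.0210% (1.45% either way). Genes with kept peaks only had 173 of 6791 higher (2.55%). Foxn4 MO against Foxj1 CRISPR gave 164 higher (3.04%) and 140 lower (2.60%), against 4.70% and 2.70% (7.40% either way). The 33 calls of the first comparison became 0 with the replicate number as a block, 0 without Foxj1 CRISPR replicate 1 or Foxn4 CRISPR replicate 1, 1 without Foxn4 CRISPR replicate 2, 21 without Foxj1 CRISPR replicate 2 and 75 without control replicate 2. The 304 calls of the second became 89 and 177 without Foxn4 MO replicates 1 and 2, 26 and 48 without Foxj1 CRISPR replicates 1 and 2, 184 and 186 without Foxn4 CRISPR replicates 1 and 2, and 488 without control replicate 2.

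The 6 largest rises in Foxn4 CRISPR over Foxj1 CRISPR were in genes that fell in Foxj1 CRISPR against control. Both comparisons use the same Foxj1 CRISPR libraries, and the genes were picked by the first, so these falls are not a separate result. Of the 6 genes, 5 also fell in Foxn4 MO against control, namely TM4SF1, EFHC2, VSTM5, FAM169A and PCNXL4 (-3.09, -1.76, -1.60, -1.39 and -1.09, adjusted p 0.00205 to 0.0343). The call of TM4SF1 held under every omission of 1 library, while those of EFHC2 (0.0687), VSTM5 (0.0804), FAM169A (0.214) and PCNXL4 (0.185) were lost without Foxn4 MO replicate 1. EFHC2 and PCNXL4 also lost it without Foxn4 MO replicate 2 (0.0637 and 0.0546), and FAM169A and PCNXL4 without control replicate 1 (0.0633 and 0.0619) or 3 (0.08 and 0.0782). EFHC2, an EF-hand protein of ciliary microtubules, had 241 and 277 CPM in Foxn4 CRISPR, 138 and 133 in Foxn4 MO, 11.4 and 35.3 in Foxj1 CRISPR, and 369, 346 and 665 CPM in Multicilin control. The 4 groups did not overlap, with Foxj1 CRISPR lowest and Foxn4 MO next (Foxn4 CRISPR against Foxj1 CRISPR 3.47 ± 0.52, adjusted p = 0.0166; Foxj1 CRISPR against control -4.30 ± 0.52, adjusted p = 0.000351). KCNH3, a potassium channel, had 31.4 and 11.3 CPM in Foxn4 CRISPR, 16.5 and 30.3 in Foxn4 MO, 0.868 and 1.32 in Foxj1 CRISPR, and 15.5, 13.6 and 12.5 CPM in Multicilin control. Foxj1 CRISPR lay below all other libraries, the range of Foxn4 CRISPR took in every Foxn4 MO and control library, and Foxn4 MO lay above the controls. PCNXL4, FAM169A, VSTM5 and TM4SF1 completed the 6 largest rises, with log2 differences of 3.46, 3.22, 3.02 and 3.62. Each of these 6 lost its call without Foxj1 CRISPR replicate 1 (adjusted p 0.174 to 0.319) and without Foxn4 CRISPR replicate 1 (0.0759 to 0.0852), and all but KCNH3 also without Foxn4 CRISPR replicate 2 (0.0902 to 0.169). With the replicate number as a block all 6 also lost it (0.0583 to 0.0852). VSTM5 also lost it without Foxj1 CRISPR replicate 2 (0.0799). LRRC47, the 1 lower gene, had 7.95 and 7.37 CPM in Foxn4 CRISPR, 16.8 and 15.3 in Foxn4 MO, 29.4 and 18.3 in Foxj1 CRISPR, and 4.89, 4.91 and 4.93 CPM in Multicilin control. Its call (-1.64 ± 0.31, adjusted p = 0.0324) was lost without Foxj1 CRISPR replicate 1 (0.444), Foxn4 CRISPR replicate 1 (0.185) or 2 (0.267), Foxn4 MO replicate 2 (0.0508) or control replicate 3 (0.05), and with the block (0.0774).

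DNAH7, a dynein heavy chain of the inner arms of motile cilia, is the other motile cilium gene with an alone-only site (signal 93.4, at -82 bp). It had 830 and 851 CPM in Foxn4 CRISPR, 377 and 606 in Foxn4 MO, 154 and 261 in Foxj1 CRISPR, and 2350, 1550 and 1450 CPM in Multicilin control. All perturbed libraries were below all controls, and DNAH7 fell by 1.09, 1.86 and 3.10 on the log2 scale (adjusted p = 0.039, 0.00211 and 0.000309). The first of these was lost without Foxn4 CRISPR replicate 1 (adjusted p = 0.206), its replicate 2 (0.17) or control replicate 1 (0.103), with uniquely matching reads (0.0558) and with the block (0.0532). Over the whole motile cilium list, 22, 62 and 73 of 77 tested models were lower in the same 3 comparisons and none was higher.

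The largest falls in Foxn4 MO were in SYT13, GPR151, CAPN9, ADPRH, TMPRSS2 and GBX2. GBX2, a homeobox factor of the hindbrain boundary, had 12 and 18.3 CPM in Foxn4 CRISPR, 0.589 and 1.57 in Foxn4 MO, 9.77 and 15.1 in Foxj1 CRISPR, and 69.9, 71.3 and 82 CPM in Multicilin control. The Foxn4 MO libraries were lowest, the controls highest and both CRISPR groups between (Foxn4 MO against control -6.01 ± 0.46, adjusted p = 5.54e-05, and against Foxj1 CRISPR -3.43 ± 0.44, adjusted p = 0.00324). CAPN9, a calpain of mucosal epithelia, had 8.43 and 17.8 CPM in Foxn4 CRISPR, 0.295 and 1.12 in Foxn4 MO, 3.47 and 7.95 in Foxj1 CRISPR, and 89, 105 and 62.3 CPM in Multicilin control (Foxn4 MO against control -6.77 ± 0.66, adjusted p = 0.000122). SYT13, a synaptotagmin, had 1 count summed over the Foxn4 MO libraries against 686 summed over the controls, a 377-fold lower level (95% counting interval 67.5 to 14900). GPR151 lost its call without Foxn4 MO replicate 1 (adjusted p = 0.151), its replicate 2 (0.155) or control replicate 1 (0.0556), and with the block (0.0513).

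KLF5, an epithelial Krüppel-like factor, was low in Foxn4 MO alone. It had 12.8 and 20 CPM in Foxn4 CRISPR, 0.982 and 2.36 in Foxn4 MO, 16.3 and 28.8 in Foxj1 CRISPR, and 16.2, 18.7 and 14.6 CPM in Multicilin control. The Foxn4 MO libraries lay below all others, which overlapped (-3.25 ± 0.45 against control, adjusted p = 0.000541, and -3.70 ± 0.47 against Foxj1 CRISPR, adjusted p = 0.0032). SLC26A4, the anion exchanger pendrin, likewise had 1.87 and 1.8 CPM in Foxn4 MO, against 23.5 to 98.4 CPM in Multicilin control (-4.98 ± 0.79, adjusted p = 0.00104). Its difference from Foxj1 CRISPR (-4.12, adjusted p = 0.015) was lost without Foxj1 CRISPR replicate 2 (0.0746), Foxn4 MO replicate 1 (0.0961) or Foxn4 MO replicate 2 (0.088).

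Among the largest rises, several genes were near absent in Multicilin control. POU5F1, a pluripotency factor, had 24.9 and 23.6 CPM in Foxn4 CRISPR, 166 and 252 in Foxn4 MO, 58.2 and 37.5 in Foxj1 CRISPR, and 1.08, 0.564 and 2.01 CPM in Multicilin control. No perturbed library overlapped the controls, and Foxn4 MO lay highest (4.31 ± 0.43, 7.41 ± 0.47 and 5.29 ± 0.44 against control, adjusted p = 0.000289, 4.69e-05 and 9.58e-05). TDGF1, a Nodal co-receptor, had 3.13 and 2.54 CPM in Foxn4 CRISPR, 17.8 and 16.9 in Foxn4 MO, 3.69 and 3.46 in Foxj1 CRISPR, and 0.317, 0.113 and 0.402 CPM in Multicilin control. ABI2, an actin regulator, had 46 and 40.3 CPM in Foxn4 CRISPR, 35.4 and 40.4 in Foxn4 MO, 45.4 and 32.6 in Foxj1 CRISPR, and 4, 3.22 and 2.35 CPM in Multicilin control. The perturbed groups overlapped one another and stood alike above the controls (3.76 ± 0.29, 3.57 ± 0.29 and 3.61 ± 0.29). NINJ2 did the same, with 20.8 to 36.3 CPM in the 6 perturbed libraries and 0 to 0.169 CPM in the 3 controls. For genes with this shape, the perturbations and the separate study of the controls cannot be told apart.

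**Figure D5:**
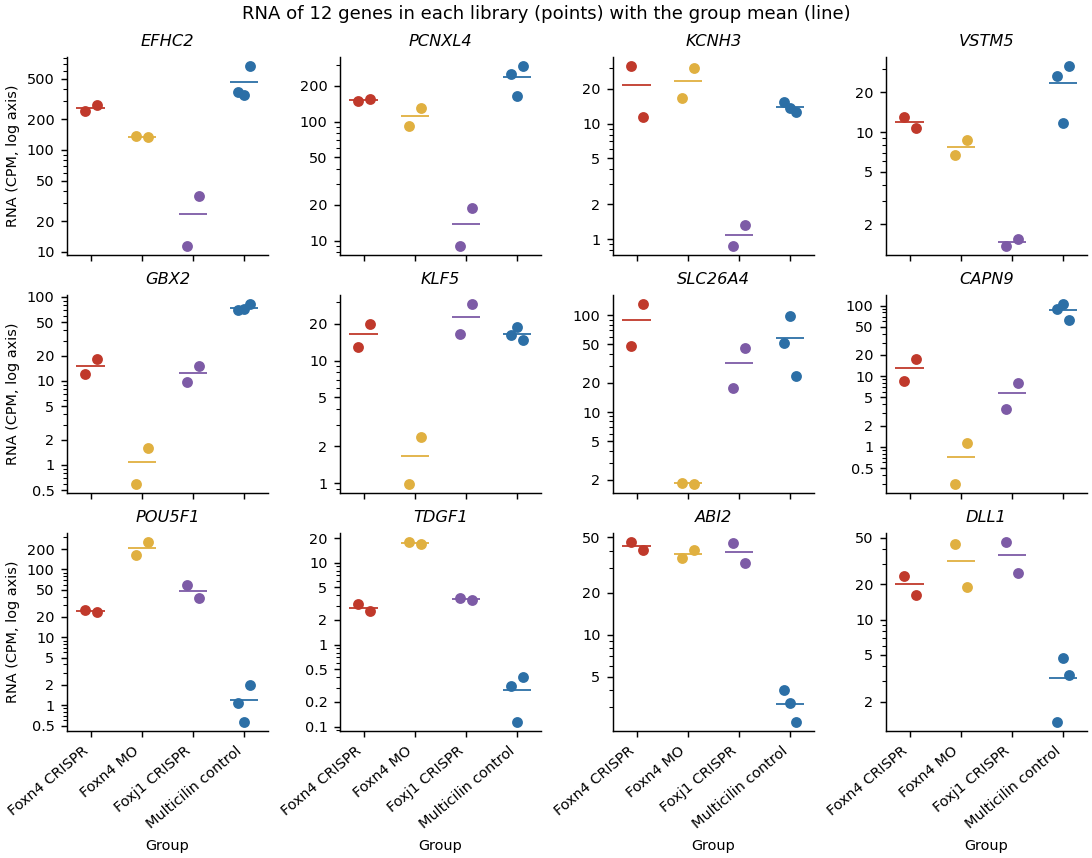
RNA in each library (points, CPM, log axes) with the group mean (line) for 12 alone-only-site genes in Foxn4 CRISPR, Foxn4 MO, Foxj1 CRISPR and Multicilin control. EFHC2, PCNXL4, KCNH3 and VSTM5 are low in Foxj1 CRISPR, GBX2, KLF5, SLC26A4 and CAPN9 in Foxn4 MO, and POU5F1, TDGF1, ABI2 and DLL1 in Multicilin control.

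Notch pathway genes with alone-only sites included ligands, a receptor, protease subunits and targets. Of 24 tested, 1, 6 and 6 rose and 2, 1 and 2 fell in Foxn4 CRISPR, Foxn4 MO and Foxj1 CRISPR against control, where 12.6, 23.9 and 19.8% of all models rose and 10.7, 21.1 and 20.7% fell. Over the whole Notch list 10, 24 and 26 of 80 rose. The members had median log2 fold changes of 0.34, 0.16 and 0.43, against -0.03, 0.08 and 0.01 over all models tested. The ligand DLL1 (signal 78.5) had 23.7 and 16.2 CPM in Foxn4 CRISPR, 44.3 and 18.9 in Foxn4 MO, 45.8 and 25.2 in Foxj1 CRISPR, and 1.33, 4.74 and 3.39 CPM in Multicilin control. All perturbed libraries were above all controls (2.65 ± 0.52, 3.31 ± 0.52 and 3.48 ± 0.53, adjusted p = 0.00665, 0.00103 and 0.000888), the first reaching adjusted p = 0.0522 without Foxn4 CRISPR replicate 1. The receptor NOTCH1 rose in Foxn4 MO (2.36 ± 0.53, adjusted p = 0.00575) and Foxj1 CRISPR (2.18 ± 0.53, adjusted p = 0.00921, lost without Foxj1 CRISPR replicate 2 at 0.0645). PSEN2, a catalytic subunit of gamma-secretase, fell in all 3 (-2.0, -3.01 and -2.79). Its fall in Foxn4 CRISPR was lost without that group's replicate 1 (adjusted p = 0.206) or 2 (0.128) or control replicate 1 (0.0923) or 3 (0.0735) or with the block (0.123), and its fall in Foxj1 CRISPR without that group's replicate 1 (0.0588). Without Foxn4 CRISPR replicate 1 no Notch gene was called in Foxn4 CRISPR, and 3 and 4 rose there without Foxn4 MO replicate 2 and control replicate 2. The 6 rises in Foxn4 MO were 3 without its replicate 1.

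Forkhead genes with alone-only sites went both ways. Of 11 tested, 2, 1 and 2 rose and 1, 4 and 3 fell in the 3 comparisons with control, against 12.6, 23.9 and 19.8% of all models higher and 10.7, 21.1 and 20.7% lower. Over the whole forkhead list 8, 7 and 11 of 47 rose and 6, 11 and 12 fell. Of the 10 models of the ionocyte marker genes, 1 had an alone-only site, a model of the ionocyte regulator FOXI1. Summed over all 10 models, these markers were not lower in Foxn4 MO (291 to 365 CPM, against 110 to 333 in control). This FOXI1 model had 20.7 and 49.2 CPM in Foxn4 CRISPR and 2.95 and 3.31 in Foxn4 MO. It had 19.4 and 20 in Foxj1 CRISPR, and 11.4, 48 and 11.6 CPM in Multicilin control. Foxn4 MO lay below all other libraries (-2.91 ± 0.70, adjusted p = 0.00746), and the call was lost without its replicate 1 (0.0633) or 2 (0.0505). FOXP1 had no counts in Foxj1 CRISPR, 15 each in Foxn4 CRISPR and Foxn4 MO, and 204 in Multicilin control, summed over each group. Foxj1 CRISPR was at least 36.6-fold lower than control, against a floor of 3 counts over the group. FOXD2 on scaffold 32212 had 2 counts in the controls, and its ratios to control were 189 (95% counting interval 51.3 to 1570) in Foxn4 CRISPR, 54.6 (14.5 to 461) in Foxn4 MO and 248 (68.0 to 2060) in Foxj1 CRISPR. The Foxn4 MO call was lost with uniquely matching reads (adjusted p = 0.216).

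Ionocyte and secretory cell genes with alone-only sites were mostly lower in Foxn4 MO. Of 9 tested 8 fell against control (median log2 fold change -1.83, against 0.08 over all models), and 1 fell in Foxn4 CRISPR and 3 in Foxj1 CRISPR. Over all models 10.7, 21.1 and 20.7% fell in Foxn4 CRISPR, Foxn4 MO and Foxj1 CRISPR. Over the whole list, alone-only site or not, 8, 31 and 18 of 53 fell and 11, 13 and 12 rose in the same order. Without Foxn4 MO replicate 1 the 8 became 3, and without either Foxj1 CRISPR replicate the 3 became 1. ATP6V1A on scaffold 244467, a subunit of the vacuolar proton pump, had 187 and 182 CPM in Foxn4 CRISPR, 55.9 and 51.9 in Foxn4 MO, 138 and 146 in Foxj1 CRISPR, and 221, 363 and 222 CPM in Multicilin control. The Foxn4 MO libraries were lowest without overlap (-2.32 ± 0.28, adjusted p = 0.000318). Both AGR2 models, a disulphide isomerase of secretory cells, fell in Foxn4 MO (-1.39 and -3.64, adjusted p = 0.00539 and 0.00731), which was lost without replicate 1 (0.0547 and 0.0576) and, for the second, replicate 2 (0.0599). Summed ionocyte markers were not lower in Foxn4 MO (291 to 365 CPM, against 110 to 333 in control) while secretory markers were (1480 to 2060, against 5370 to 15100), and their part in these falls was not tested.

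Ribosomal protein genes with alone-only sites that passed the test on estimated counts were nearly all lower. Of 74 tested, 20, 21 and 24 fell and 0, 1 and 0 rose in Foxn4 CRISPR, Foxn4 MO and Foxj1 CRISPR against control, with medians of -0.57, -0.50 and -0.53. Over the whole list, alone-only site or not, 36, 39 and 42 of 143 fell, and over all models 10.7, 21.1 and 20.7% did. RPS14, a small subunit protein, had 88.7 and 89.2 CPM in Foxn4 CRISPR, 53.8 and 97.5 in Foxn4 MO, 77.5 and 76 in Foxj1 CRISPR, and 122, 156 and 206 CPM in Multicilin control. All perturbed libraries were below all controls, and the test was passed in Foxn4 MO and Foxj1 CRISPR (adjusted p = 0.0164 and 0.0197) but not Foxn4 CRISPR (0.0679). The first was lost without Foxn4 MO replicate 1 (0.128), and the second without Foxj1 CRISPR replicate 1 (0.114) or 2 (0.103) or control replicate 3 (0.0589). RPL23A, RPLP2 and RPL36 passed it in no comparison with control. The counts of falls depended on single libraries: in Foxn4 CRISPR 3 without its replicate 1, 4 without its replicate 2, 8 without control replicate 3 and 30 without control replicate 1; in Foxn4 MO 4 without its replicate 1 and 9 without control replicate 3; in Foxj1 CRISPR 7 without either of its replicates, 14 without Foxn4 CRISPR replicate 1, 16 without Foxn4 CRISPR replicate 2 and 12 without control replicate 3. With the replicate number as a block 8, 10 and 11 fell, and with all matching reads 41, 54 and 37. Counting uniquely matching reads only, 15, 15 and 22 of 73 tested fell and 5, 10 and 5 rose. The calls were then not nearly all lower, least of all in Foxn4 MO, where the median was -0.18.

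Splicing and cell cycle genes with alone-only sites that passed the test were nearly all higher. Of 23 splicing genes 8, 13 and 14 rose and none fell in the 3 comparisons with control under any single-library omission. Their medians were 0.63, 0.98 and 0.83. The whole splicing list, alone-only site or not, did likewise, with 36, 68 and 60 of 101 higher, against 12.6, 23.9 and 19.8% of all models. SRSF1, a splicing factor with a strong alone-only peak (137, at -83 bp), had 93 and 102 CPM in Foxn4 CRISPR, 102 and 175 in Foxn4 MO, 127 and 115 in Foxj1 CRISPR, and 81, 73.7 and 52.7 CPM in Multicilin control. The perturbed libraries were all above the controls, by 1.0 ± 0.28 in Foxn4 MO (adjusted p = 0.015, but 0.163 without its replicate 2 and 0.0715 with all matching reads). Cell cycle genes rose at 6, 21 and 10 and fell at 0, 2 and 1 of 42 tested, and over the whole cell cycle list 25, 55 and 43 of 131 rose. In Foxn4 CRISPR and Foxj1 CRISPR the members' counts are close to the shares over all models, and most members did not pass. BUB3, a spindle checkpoint protein, rose in all 3 (1.56, 1.62 and 2.29, adjusted p = 0.00405, 0.00139 and 0.000334), reaching 0.0535 in Foxn4 CRISPR without that group's replicate 1. Without Foxn4 CRISPR replicate 1 no splicing or cell cycle gene was called in Foxn4 CRISPR, without its replicate 2 there were 3 and 3, and with the block 5 and 2. The cell cycle count there was 3 without control replicate 1 and 12 without control replicate 2. Without Foxj1 CRISPR replicate 1 the rises in Foxj1 CRISPR were 6 and 4, and without Foxn4 MO replicate 1 the cell cycle rises in Foxn4 MO were 9.

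Many histone genes rose in Foxn4 MO, with an alone-only site or without. Of 10 tested with such a site 9 rose against control and 7 against Foxj1 CRISPR, with medians of 3.10 and 2.86. Over the whole histone list 27 and 19 of 46 rose, against 23.9% and 4.70% of all models. HIST1H4K had 5.66 and 8.48 CPM in Foxn4 CRISPR, 51.6 and 124 in Foxn4 MO, 2.17 and 7.07 in Foxj1 CRISPR, and 8.63, 8.29 and 8.84 CPM in Multicilin control. Foxn4 MO lay above all other libraries (3.35 ± 0.47 against control, adjusted p = 0.000589, and 4.25 ± 0.58 against Foxj1 CRISPR, adjusted p = 0.0042). HIST2H2AB behaved alike, with 59.5 and 264 CPM in Foxn4 MO and 11.2 to 14.5 CPM in Multicilin control. Core histone mRNAs are normally not polyadenylated, and the libraries were selected for poly-A. Against Foxj1 CRISPR, 2 to 4 histone genes were called when a Foxj1 CRISPR or a Foxn4 MO replicate was left out (2 and 3 without Foxj1 CRISPR replicates 1 and 2, 4 without either Foxn4 MO replicate). Core histone genes come in near-identical copies, so the counts of single models are uncertain.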

How the data were processed

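The peak positions, tag counts, tag signal (tags scaled to 10000000 tags) and fold over input were deposited by the authors. Per the file headers, peaks were called on each ChIP library alone with HOMER against a shared input, at a false discovery rate of 0.001, at least 4-fold over input and over the local 10000 bp, and a Poisson p-value of 0.0001. All input libraries of the series were re-used and carry the names of other ChIP targets (histone, Foxj1-FLAG, Rad21 and Myb-GFP). The Rad21 input was harvested at 3 h, the others at 9 h, and none is labelled as coming from Foxn4 caps. Scores and fractions in the deposited peak lists were not used for tests. The RNA files hold estimated counts and counts of uniquely matching reads per gene model, deposited by the authors; per the submitters' processing notes the tools included STAR, eXpress, DESeq, Bowtie2 and HOMER, with versions not given in the sources used here. Strand was not read, so antisense overlaps cannot be told apart.

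Estimated counts were rounded and tested with edgeR 4.0.16 (R 4.3.3): quasi-likelihood fit, TMM scaling, filter on low counts, all 9 RNA libraries in 1 fit with 5 residual degrees of freedom, and Benjamini-Hochberg adjusted p under 0.05 over 19058 models. The script was tested on simulated data. DESeq2 1.42.0, other scalings, filters and read sets, a replicate block and leaving out each library were alternatives. The members and gene lists were chosen with earlier results of these data known. Named genes were the 10 strongest sites, the 6 largest rises and falls per comparison above 5 CPM without overlap of groups, list members and the perturbed genes; the text describes a selection of these, picked with their values seen. Intervals and floors cover counting error only.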

Additional observations from a re-analysis of the deposited data

How the results depend on the processing

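The number of alone-only promoter peaks was 5832; it was 1599 with the Foxn4-alone list cut to the length of the other list and 2024 among peaks above the median signal. Called genes of these sites numbered 1092, 2295, 1960, 33 and 304 in Foxn4 CRISPR, Foxn4 MO and Foxj1 CRISPR against control, and in Foxn4 CRISPR and Foxn4 MO against Foxj1 CRISPR. Counting all matching reads gave 1686 in the first and 1229 in the last. DESeq2 gave 108 and 557 in the last pair (2.0 and 10.3% of members tested, against 3.88 and 12.5% of all models). No filter on low counts gave 51 in Foxn4 CRISPR against Foxj1 CRISPR. Among members in the shortened list, an alternative chosen after seeing the data, the counts were 299, 673, 575, 8 and 93. The number of models tested in that smaller set is not given. These counts therefore do not show whether its models were called more or less often than all models. Leaving out 1 library gave 233 to 1215, 1355 to 2429, 768 to 2125, 0 to 75 and 26 to 488. Shares over all models are not given for fits with all matching reads, no filter or 1 library left out. Such counts, here and above, do not show whether the members moved more than all models. No label says that a replicate number marks a shared clutch or day, and with 2 pairs a group the numbers were not taken to pair the samples. Same-numbered deviations correlated at 0.51 between Foxn4 and Foxj1 CRISPR, 0.17 between Foxn4 MO and Foxj1 CRISPR, 0.09 between Foxn4 MO and Foxn4 CRISPR and -0.14 to -0.02 with controls. With the replicate block the 5 counts were 801, 1919, 1539, 0 and 278. These were 14.9, 35.6, 28.6, 0 and 5.16% of members tested, against 17.2, 37.9, 33, 0 and 6.19% of all models. At the 0, 443 of 5387 members tested had an unadjusted p under 0.05 in edgeR with the block. The share of all models under that limit was not computed, so this count shows nothing particular to the members. DESeq2 without the block called 108 there (2.0%, against 3.88% of all models).

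The 312 values of named genes were followed through each setting. Single-library omissions left 2395 outcomes on the same side of the adjusted p threshold. They lost 403 calls, gained 10 and reversed the direction of none. The other settings left 1718 outcomes on the same side, lost 127 calls, gained 20 and reversed the direction of 4. Counting all matching reads turned NUP85 in Foxn4 CRISPR against control to -0.27 (3.73 in the report's fit), FOXO1 in Foxn4 MO against control to 0.05 (-1.06) and KIF5B in Foxj1 CRISPR against control to -0.12 (0.78). Counting uniquely matching reads turned RAB31 in Foxn4 MO against control to -0.36 (1.48). The cause was not tested. One ChIP library a condition, and 2 libraries in each perturbed RNA group, limit every statement.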

Other observations

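Some genes of alone-only sites differed widely between replicates. GPR151 had 1.2 and 475 CPM in Foxn4 CRISPR, 1.96 and 1.29 in Foxn4 MO, 2.32 and 318 in Foxj1 CRISPR, and 652, 84.8 and 310 CPM in Multicilin control. YRDC had 3.37 and 74.7 CPM in Foxn4 CRISPR, 1.47 and 6.46 in Foxn4 MO, 7.52 and 145 in Foxj1 CRISPR, and 3.3, 1.86 and 2.07 CPM in Multicilin control. In both CRISPR groups replicate 2 was the high one for both genes. An amino acid and a stress gene were high in Foxn4 MO. PSAT1 on scaffold 29017, an enzyme of serine synthesis, had 1.08 and 1.27 CPM in Foxn4 CRISPR, 130 and 29.1 in Foxn4 MO, 0.289 and 1.32 in Foxj1 CRISPR, and 0.19, 0.169 and 0.115 CPM in Multicilin control. CHAC1, a glutathione-degrading enzyme of the unfolded protein response, had 0.12 and 0.476 CPM in Foxn4 CRISPR, 94.8 and 31.7 in Foxn4 MO, 0.217 and 0.589 in Foxj1 CRISPR, and 9.39, 6.21 and 1.84 CPM in Multicilin control. YBEY, a mitochondrial RNA-processing factor, had 0.964 and 1.11 CPM in Foxn4 CRISPR, 25.2 and 39.2 in Foxn4 MO, 3.33 and 2.87 in Foxj1 CRISPR, and 113, 74.2 and 180 CPM in Multicilin control. MTAP, an enzyme of methionine salvage, had 7.83 and 8.48, 118 and 157, 11.3 and 14.7, and 559, 209 and 467 CPM in the same order of groups.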
